A study of Mus musculus with 6 samples.

Results

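The epididymal secretory genes and beta-defensins are genes best known from the epididymis, the coiled duct in which sperm mature, and they were examined here in adipose tissue of cavin-3 KO and WT mice. Members were chosen by name: every numbered Defb gene, the lipocalin genes Lcn5, Lcn6, Lcn8, Lcn9, Lcn10 and Lcn12, and Adam7, Adam28, Wfdc10, Rnase9, Rnase10, Cst8, Cst11, Gpx5 and Ros1. This rule names 57 genes of the mouse RefSeq annotation, of which 53 had a probe set with a single gene symbol, out of 19937 genes so measured. Defb2, Defb9, Defb12 and Cst8 had none and are named only. Of the 53 measured members, 39 are beta-defensins, 6 are lipocalins and 8 belong to other families.

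RNA of adipose tissue from 3 cavin-3 KO mice and 3 WT littermates, all 10 weeks of age and without food for 6 hours, was hybridised to 6 Affymetrix Mouse Gene 1.0 ST arrays, 1 array per mouse. The KO mice lack cavin-3 in the whole body, because a lacZ/neo cassette stands in place of the gene, and the mice of this experiment descend from 1 targeted ES cell clone on a C57BL/6 background. The labels give the tissue as adipose and name no depot, and the methods state that males alone were analysed. All levels below are log2 intensities of the deposited values, in which a difference of 1 is a 2-fold difference, and they are compared between arrays for the same probe set and not between genes.

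The principal cells that line the epididymis secrete proteins onto passing sperm under the control of androgens and of factors from the testis, and different segments of the duct secrete different sets. Beta-defensins are small cationic peptides held by disulfide bonds. Some of them guard epithelia of the airway, skin and kidney against microbes, and many others coat sperm. In male mice a large visceral fat pad lies against the epididymis, so adipose tissue and epididymal duct are neighbours in the body.

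The targeted gene and the tissue were checked first. Cavin3 (Prkcdbp) had a level of 6.79, 6.78 and 7.12 on the KO arrays and of 10.05, 10.90 and 10.45 on the WT arrays, with no overlap. It was 0.0843-fold in KO (adjusted p = 0.0409 from limma). The adipocyte genes Adipoq, which encodes adiponectin, Plin1, Fabp4 and Lep lay between 11.08 and 12.54 on all 6 arrays. Xist, transcribed from the silenced X chromosome of females, was at 11.34 in KO replicate 3 and 11.14 in WT replicate 2, and between 3.70 and 6.30 on the other 4 arrays. The Y-linked gene Uty was at 3.21 in KO replicate 3 and 3.36 in WT replicate 2, against 7.89 to 8.14 on the other 4. These values of KO replicate 3 and WT replicate 2 go against the statement that males alone were used, so the comparison below is also given without both arrays.

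The results turn on a group of members that were high on the same 2 arrays. Before their values, the promoter windows of 5 of these genes are shown, and whether the genes share control was not tested. They are the widest-ranging gene with a window on each of the 3 chromosomes that carry the group (Defb38, Wfdc10 and Defb42), Defb39, the neighbour of Defb38, and Defb23, which holds the marked hexamer 2 times. Each window is 300 bases of RefSeq (GRCm38.p6), from 250 bases before the annotated start of transcription to 50 bases after it, read 5′ to 3′ on the strand of the gene. Capitals mark AGAACA or its reverse complement TGTTCT, the hexamer that androgen receptor and related steroid receptors recognise in pairs.
Defb38, chr8:19026519-19026818, minus strand: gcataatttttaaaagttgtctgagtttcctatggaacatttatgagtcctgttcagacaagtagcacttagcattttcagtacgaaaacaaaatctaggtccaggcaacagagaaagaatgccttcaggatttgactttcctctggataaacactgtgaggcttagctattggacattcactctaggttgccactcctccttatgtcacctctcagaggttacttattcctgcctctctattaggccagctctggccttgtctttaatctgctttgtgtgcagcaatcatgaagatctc
Defb39, chr8:19064872-19065171, minus strand: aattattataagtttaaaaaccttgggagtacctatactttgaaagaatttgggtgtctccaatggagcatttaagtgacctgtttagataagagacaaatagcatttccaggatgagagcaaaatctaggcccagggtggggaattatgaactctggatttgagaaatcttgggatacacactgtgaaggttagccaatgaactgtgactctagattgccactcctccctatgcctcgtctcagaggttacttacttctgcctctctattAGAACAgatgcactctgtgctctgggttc
Wfdc10, chr2:164655796-164656095, plus strand: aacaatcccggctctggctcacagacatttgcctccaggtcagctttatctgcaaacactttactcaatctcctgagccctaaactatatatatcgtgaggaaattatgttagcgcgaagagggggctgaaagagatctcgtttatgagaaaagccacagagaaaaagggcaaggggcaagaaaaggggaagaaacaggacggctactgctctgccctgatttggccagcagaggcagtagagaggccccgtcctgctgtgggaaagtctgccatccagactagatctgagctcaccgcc
Defb42, chr14:63046741-63047040, plus strand: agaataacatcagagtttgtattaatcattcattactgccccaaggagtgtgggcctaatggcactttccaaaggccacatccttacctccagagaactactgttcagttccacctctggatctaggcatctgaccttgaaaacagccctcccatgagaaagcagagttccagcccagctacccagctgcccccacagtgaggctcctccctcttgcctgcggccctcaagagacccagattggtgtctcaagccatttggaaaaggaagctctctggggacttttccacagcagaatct
Defb23, chr2:152464571-152464870, minus strand: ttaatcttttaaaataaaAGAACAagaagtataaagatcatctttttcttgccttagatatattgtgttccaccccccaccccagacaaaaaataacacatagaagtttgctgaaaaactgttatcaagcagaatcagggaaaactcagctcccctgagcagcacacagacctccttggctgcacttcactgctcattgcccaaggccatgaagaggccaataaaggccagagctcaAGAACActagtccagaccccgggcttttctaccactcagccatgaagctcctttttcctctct

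The windows of Defb38 and Defb39 were alike: in a global alignment 209 of 267 aligned bases were the same (78.3%). In Defb39 a hexamer began 21 bases after the start, and the window of Defb38 held none. In Defb23 hexamers began at positions -232 and -13 from the start. Wfdc10 and Defb42 had none in this window. Of the 53 members, 39 had a window in the RefSeq table, 41 windows in all, and 25 of the 41 (61.0%) held AGAACA or TGTTCT on either strand, against 6233 of all 32851 windows (19.0%). The members that were high on the same 2 arrays did not stand out within the list: the hexamer was in 9 of their 14 windows (64.3%) and in 15 of 26 windows (57.7%) of members whose levels varied by less than 1. The full palindrome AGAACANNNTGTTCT was in 0 of the 41 windows and in 0.00913% of all windows. TATAAA on the strand of the gene was in 4 of the 41 (9.76%) and in 8.32% of all windows. Member windows were richer in A and T (median 51.7%) than all windows (47.3%), and related genes share sequence, so the windows are not independent. A match is a run of letters, and binding was not measured.

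Of the 53 members, 20 varied by at least 1 on the log2 scale over the 6 arrays (37.7%, against 7.65% of all genes), and 18 of these 20 had KO replicate 2 and WT replicate 1 as their 2 highest arrays (90.0%, against 36.5% of all genes that varied as much). Over all 53 members the share with these 2 arrays on top was 43.4% (23 members), against 8.5% of all genes. The 18 comprised 14 beta-defensins, Lcn12, Adam7, Rnase9 and Wfdc10. They were picked out after their values were seen, so these counts describe them and no test was made.

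Adam7, which encodes a membrane protein of epididymal epithelium that is passed to sperm, had the widest range. Its level (probe set 10421106) was 4.51, 9.19 and 3.75 in KO replicates 1, 2 and 3 and 10.33, 3.67 and 3.79 in WT replicates 1, 2 and 3. The groups overlapped, with 1 high array in each genotype. Wfdc10, a member of the whey acidic protein family of small disulfide-rich secreted proteins, was at 6.53, 11.27 and 6.26 in KO and at 11.65, 6.22 and 6.51 in WT. It was the 1 gene of the 18 whose level exceeded the median of the array on all 6 arrays.

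**Figure D1:**
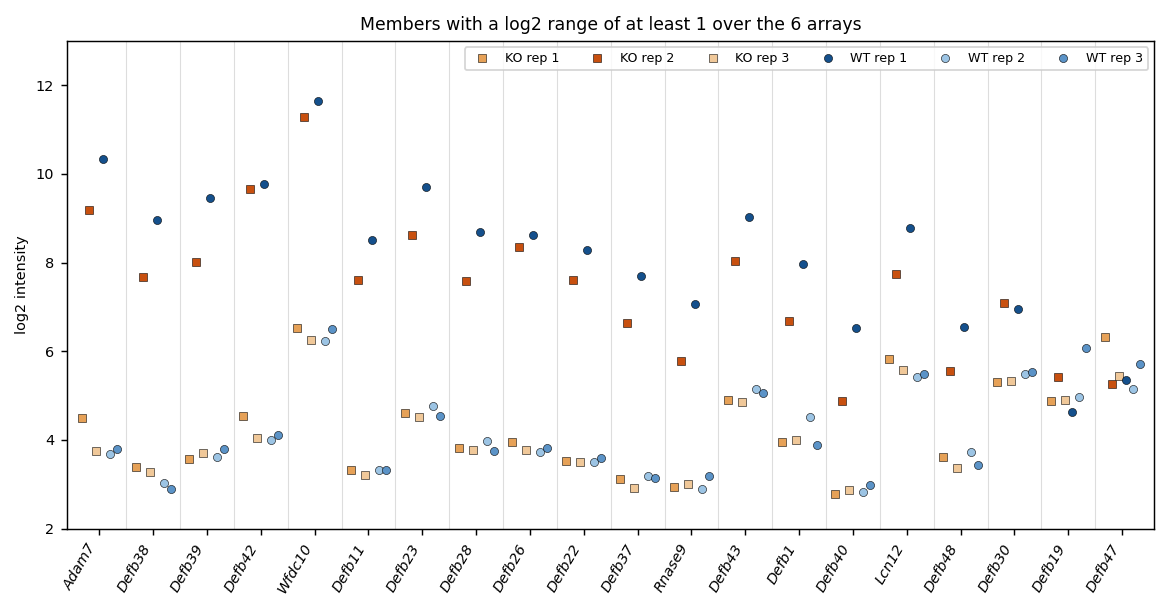
Log2 intensity of the 20 members with a range of at least 1, with 1 point per array (KO squares, WT circles) and genes ordered by range. For 18 of the 20, KO replicate 2 and WT replicate 1 lie above the other 4 arrays, and Defb19 and Defb47 do not follow this order.

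Among the beta-defensins the widest ranges were those of Defb38, Defb39 and Defb42. Defb38 was at 3.38, 7.67 and 3.29 in KO and at 8.96, 3.03 and 2.89 in WT. Defb39 was at 3.56, 8.02 and 3.70 in KO and at 9.44, 3.62 and 3.80 in WT. Defb42 was at 4.53, 9.65 and 4.05 in KO and at 9.77, 3.99 and 4.11 in WT. In each of these 3 genes the high KO array stood more than 4 above every low array, and the KO and WT values overlapped.

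Defb1, a beta-defensin made constitutively by many epithelia, showed the same order at smaller size, with 3.96, 6.68 and 4.01 in KO and 7.96, 4.52 and 3.89 in WT. Defb23 was at 4.60, 8.61 and 4.51 in KO and at 9.70, 4.77 and 4.55 in WT. The others with this order were Defb11, Defb22, Defb26, Defb28, Defb30, Defb37, Defb40, Defb43 and Defb48, with ranges from 1.79 for Defb30 to 5.31 for Defb11. Whether probes of closely related defensin genes also bind each other's transcripts was not analysed here, so neighbours such as Defb38 and Defb39 need not be separate signals.

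Lcn12, a lipocalin, was at 5.83, 7.74 and 5.57 in KO and at 8.78, 5.42 and 5.48 in WT. Lipocalins are carriers of small lipophilic molecules, and this was the 1 lipocalin of 6 with a range of at least 1. Rnase9, a member of the ribonuclease A family, was at 2.94, 5.79 and 3.01 in KO and at 7.06, 2.90 and 3.18 in WT. In these 2 genes, too, 1 array of each genotype was high.

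Between both high arrays, WT replicate 1 exceeded KO replicate 2 for 17 of the 18 genes. The difference of KO replicate 2 minus WT replicate 1 had a median of -1.05 and ran from -1.65 for Defb40 to 0.13 for Defb30. Against the median of the other 4 arrays, KO replicate 2 was higher by a median of 3.91 and WT replicate 1 by a median of 4.80 on the log2 scale. On these 4 arrays 17 of the 18 genes lay below the median of the array, and signal over background is unknown, so no folds are given. The other 4 arrays differed little from each other, with a median spread of 0.28 and at most 0.83, the spread of Adam7. Among these 4, KO replicate 1 was above the rest for 6 genes, WT replicate 2 for 6 and WT replicate 3 for 6. The level in KO replicate 1 minus the mean of KO replicate 3 and WT replicate 2, the arrays with high Xist, had a median of 0.045 over the 18 genes. It was above 0 for 10 and below 0 for 8, from -0.31 for Defb1 to 0.79 for Adam7.

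**Figure D2:**
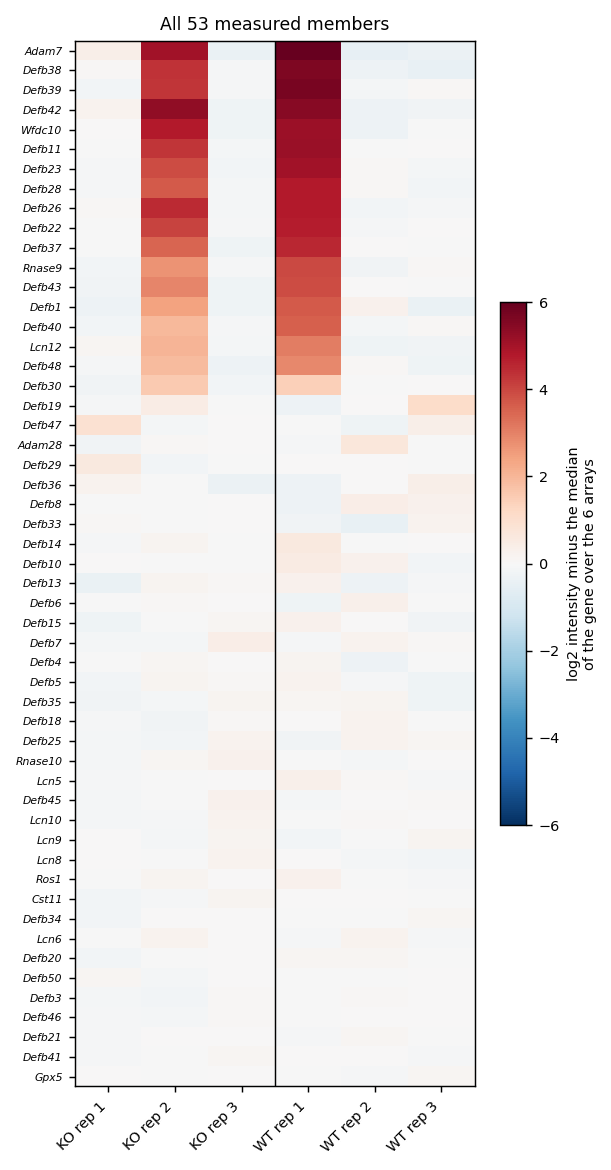
Log2 intensity of each of the 53 measured members minus its own median over the 6 arrays (rows, ordered by range), with KO arrays left of WT arrays. The upper 18 rows are red in KO replicate 2 and WT replicate 1, and most of the lower rows stay near 0, apart from Defb19 in WT replicate 3, Defb47 in KO replicate 1 and Adam28 in WT replicate 2.

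Defb19 and Defb47 varied in another order. Defb19 was at 4.87, 5.41 and 4.91 in KO and at 4.64, 4.98 and 6.07 in WT, so that WT replicate 3 was highest and WT replicate 1 lowest. Defb47 was at 6.32, 5.26 and 5.43 in KO and at 5.34, 5.15 and 5.72 in WT, highest in KO replicate 1. With a range of 1.17, Defb47 was the last gene inside the limit of 1, and Adam28, which encodes a metalloprotease of the same family as Adam7, was the first outside it at 0.89. Adam28 was highest in WT replicate 2 (4.95, against 4.06 to 4.33 on the other 5 arrays).

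The other 33 members stayed within 0.89 on the log2 scale (median range 0.40), and 32 of them were below the median of the array on all 6 arrays. Several are classical products of the head of the epididymis. Gpx5, the secreted glutathione peroxidase of the caput, was at 3.13, 3.13 and 3.14 in KO and at 3.11, 3.08 and 3.23 in WT, the narrowest range of the list (0.15). Ros1, the receptor tyrosine kinase that the initial segment needs to differentiate, was at 4.22, 4.40 and 4.27 in KO and at 4.51, 4.23 and 4.19 in WT. Lcn8 and Lcn5, lipocalins of the caput, lay between 4.01 and 4.34 and between 4.53 and 4.91. Cst11, a cystatin-type protease inhibitor, lay between 5.30 and 5.61, and Rnase10 between 3.29 and 3.69. Whether these probe sets respond to their transcripts was not tested.

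Beta-defensins known from inducible defence of skin and airway were also in this group. Defb4 lay between 2.70 and 3.19, Defb3 between 3.45 and 3.67 and Defb14 between 2.85 and 3.51. The last of these was highest in WT replicate 1, by 0.42 over KO replicate 2. Of the 33 genes, 5 had KO replicate 2 and WT replicate 1 on top, at differences that did not reach 1.

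The members lie in runs of neighbouring genes in the RefSeq order. The counts by run stand beside 18 of all 53 members. The runs are short, the 18 were picked by their values, and a difference between runs was not tested. On chromosome 14, 4 of the 5 genes in the run Defb48, Defb47, Defb43, Defb30 and Defb42 were high in KO replicate 2 and WT replicate 1, all except Defb47. On chromosome 8, the run Defb40, Defb37, Defb38, Defb39, Defb12 and Defb34 held 4 such genes of 5 measured, all except Defb34. A further run on chromosome 8, of Defb14, Defb4, Defb6, Defb46, Defb5, Defb3, Defb8 and Defb7, held 0 of 8. The run on chromosome 8 from Defb1 to Defb13 held 2 of 7 measured, Defb1 and Defb11. On chromosome 2, 4 of 11 genes in the run from Defb23 to Defb25 belonged to the group (Defb22, Defb23, Defb26 and Defb28). The lipocalin run Lcn8, Lcn5, Lcn6 and Lcn10 held 0 of 4, while Lcn12, which stands apart from it on chromosome 2, belonged. Rnase9 belonged and its neighbour Rnase10 on chromosome 14 did not.

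No member was called different between cavin-3 KO and WT. By limma 0 of 53 passed an adjusted p of 0.05, where 0.00575% of all 34760 probe sets did, and 0 had an unadjusted p under 0.05, where 0.838% of all genes did. By the methods' t-test 0 passed at either level. The KO and WT values overlapped for all 53, where 4.61% of all genes did not overlap. The smallest unadjusted p was that of Lcn8 (0.201, log2 difference 0.15).

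The estimates were lower in KO for 38 of the 53 members (71.7%, against 49.7% of all genes), with a median log2 difference of -0.07 (0.00085 over all genes). For the 18 genes high in KO replicate 2 and WT replicate 1 the median was -0.37, from -0.60 for Defb40 to 0.12 for Defb42, with 17 below 0. The spread within each genotype was far wider than these differences. Adam7 averaged 5.81 ± 2.95 in KO and 5.93 ± 3.81 in WT (SD, n = 3 each). Its log2 difference was -0.12, with a 95% interval of -5.43 to 5.19. Defb40 averaged 3.51 ± 1.19 in KO and 4.11 ± 2.10 in WT (SD, n = 3 each). Its log2 difference was -0.60, with an interval of -3.26 to 2.06. The standard errors of the 18 differences ran from 0.61 to 2.20, against a median of 0.13 over all probe sets. For the 33 genes of narrow range they ran from 0.083 to 0.21, and the differences from -0.25 for Adam28 to 0.18 for Defb33. Both groups were set by their range over the arrays, so wide and narrow standard errors follow from that choice.

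Single arrays turned these differences. The median of the 18 genes was 1.22 without WT replicate 1 (18 of 18 higher in KO) and -1.62 without KO replicate 2 (18 of 18 lower). This turn follows from the choice of the 18, each with 1 high array in each genotype, and is no separate result. Leaving out KO replicate 1 gave 0.22 and KO replicate 3 gave 0.23, and leaving out WT replicate 2 gave -1.13 and WT replicate 3 gave -1.16. Without both arrays with high Xist the median was -0.43, and 0 members passed at an adjusted or an unadjusted p of 0.05. Without KO replicate 2 and WT replicate 1 it was -0.06. Defb38 then had an unadjusted p under 0.05 in 2 against 2 arrays, as did Defb8, and neither passed after adjustment.

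**Figure D3:**
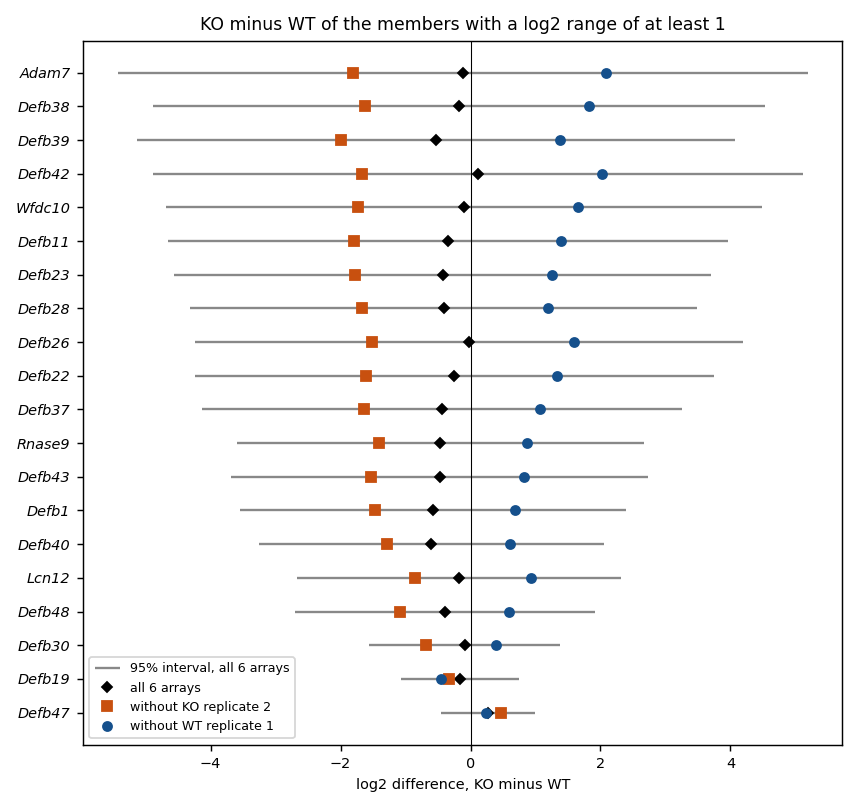
KO minus WT log2 difference of the 20 members with a range of at least 1 for all 6 arrays (diamonds, with the 95% interval from limma), without KO replicate 2 (squares) and without WT replicate 1 (circles). For the upper 18 genes the squares lie below 0 and the circles above 0, and every interval includes 0. These 18 were picked for high levels on the same 2 arrays, so the sides of squares and circles follow from that choice.

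Other genes of the epididymis were followed through fixed lists, which were drawn up with earlier results of these data known. Of 45 further genes of principal cells, 42 were measured. Pate3, Ly6g5b and Crisp1, which the paper lists as up in KO, were not. Of the 42, 26 varied by at least 1, against 7.65% of all genes. Of these 26, 24 had KO replicate 2 and WT replicate 1 on top, against 36.5% of all genes that varied as much. By limma 0 of the 42 passed an adjusted p of 0.05 and 0 an unadjusted p of 0.05. The median log2 difference was -0.08, with 18 higher and 24 lower in KO. Spink8, a Kazal-type protease inhibitor gene, was at 5.31, 11.49 and 4.12 in KO and at 11.89, 4.14 and 4.15 in WT. Rnase12 was at 4.09, 8.55 and 4.02 in KO and at 9.59, 3.81 and 3.37 in WT. Pate1 and Wfdc15b had the same 2 arrays on top, with levels up to 9.70 and 10.27.

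Cuzd1 was graded over more arrays than the members were, with 8.10, 10.24 and 5.01 in KO and 10.98, 4.87 and 6.36 in WT. KO replicate 1 thus stood between the highest pair and the rest. Cuzd1 was not alone in the list: KO replicate 1 also stood there for Pax8 (8.12) and Aqp9 (6.67), for example. Sult1e1, which encodes oestrogen sulfotransferase, followed the Y-linked genes instead: it was at 9.50, 9.78 and 2.98 in KO and at 9.68, 3.29 and 9.94 in WT. Both arrays with high Xist were low, and the 4 others were within 0.44 of each other.

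Clear cells are the acid-secreting cells of the duct. Of 7 genes in their list 4 varied by at least 1, and 3 of these had KO replicate 2 and WT replicate 1 on top. Among the 3 was the proton pump subunit gene Atp6v1g3 (3.96, 5.53 and 4.42 in KO, 7.09, 4.44 and 4.27 in WT). The fourth, Atp6v0a4, was highest in KO replicate 1 (6.80). Of 11 genes listed for seminal vesicle and vas deferens, Akr1b7 was not measured. The 10 measured genes did not have this order: 0 had KO replicate 2 and WT replicate 1 on top. All 10 were below the median of the array on every array, and whether their probe sets respond to their transcripts was not tested.

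Markers of other cell types moved with the high arrays or in other orders. Smooth muscle cells surround the epididymal duct and also blood vessels. Of their genes, 11 of 11 were highest in KO replicate 2 and WT replicate 1, against 8.5% of all genes. A range of at least 1 was seen in 9 of the 11. The mean level of the 11 genes was 8.12, 10.12 and 8.87 in KO and 10.30, 9.09 and 8.52 in WT. None of the 11 was below the median of the array on all arrays. Testis germ cell genes had their mean at 6.06, 6.40 and 4.98 in KO and at 5.79, 4.99 and 6.22 in WT. Of these 15 genes 0 had KO replicate 2 and WT replicate 1 on top, and the mean was lowest on both arrays with high Xist. The protamine gene Prm2, which followed the mean, was at 9.74, 9.44 and 5.85 in KO and at 8.93, 6.23 and 9.03 in WT. Acrv1, Zpbp, Dazl and Tssk6 did not follow it and were lowest in WT replicate 1. Skeletal muscle genes, of which 12 of 12 varied by at least 1, had their mean at 5.99, 6.37 and 8.94 in KO and at 6.66, 8.88 and 5.94 in WT, highest on both arrays with high Xist. Urothelium genes (8 of 9 varied by at least 1) had their mean at 6.25, 6.83 and 6.42 in KO and at 6.83, 8.26 and 6.30 in WT, highest in WT replicate 2. Of 8 genes listed for the female reproductive tract, Ovgp1 and Cyp19a1 were not measured. Of the 6 measured 0 varied by 1, with means between 5.32 and 5.44 on KO arrays and between 5.17 and 5.48 on WT arrays. The adipocyte list had a mean of 12.16 to 12.26 on the KO arrays and 12.08 to 12.26 on the WT arrays. Of its 14 genes Cfd was not measured, and 0 of the 13 measured varied by 1. In whole tissue, fewer cells of a type and less RNA per cell cannot be told apart, and the part of these cell types in the levels of the members was not tested.

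**Figure D4:**
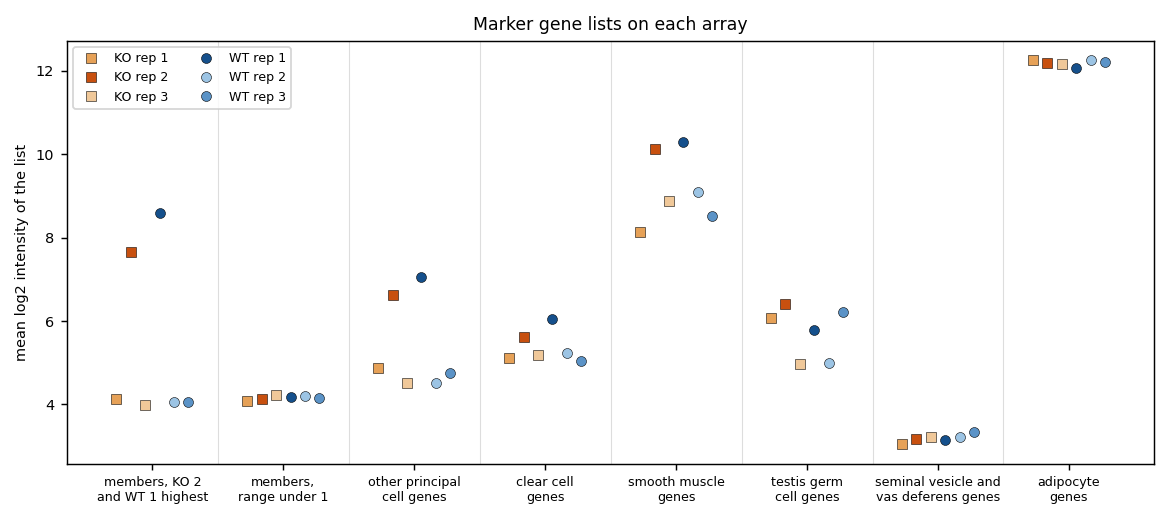
Mean log2 intensity of 8 gene groups on each array (KO squares, WT circles). The 18 members that define the order and other principal cell genes are highest in KO replicate 2 and WT replicate 1. So are clear cell genes and smooth muscle genes. Testis germ cell genes are lowest in KO replicate 3 and WT replicate 2, and adipocyte genes stay within 12.08 to 12.26.

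Among the 1505 other genes with a range of at least 1, the 10 whose profile over the 6 arrays lay closest to the mean profile of the 20 wide-ranging members were Ltf, Eddm3b, Gm5087, Eppin, Wfdc16, Dpp6, Spink11, Abcb5, Crisp4 and Spink10. Profiles were centred on their own mean, and the root mean square difference ran from 0.16 to 0.22 on the log2 scale. Ltf, which encodes the iron-binding protein lactoferrin, was at 4.52, 7.70 and 4.54 in KO and at 8.82, 4.30 and 4.42 in WT. Crisp4, a cysteine-rich secretory protein gene of the epididymis, was at 2.77, 6.56 and 2.76 in KO and at 7.04, 2.63 and 2.87 in WT. Eppin, an epididymal protease inhibitor gene of the Wfdc cluster, was at 5.28, 8.69 and 5.16 in KO and at 9.41, 5.08 and 5.73 in WT. Of the 10, the 6 genes Eppin, Wfdc16, Spink11, Abcb5, Crisp4 and Spink10 were already in the list of principal cell genes.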

How the data were processed

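The authors amplified total RNA into cDNA, labelled it with biotin, hybridised it to Mouse Gene 1.0 ST arrays and used GenePattern modules on the scans. They deposited 1 linear intensity for each probe set and array, and RMA is named without a version in the submitters' processing notes. RMA includes background correction and quantile normalization. Median intensity was 67.1 to 70.8 on the 6 arrays, whose number limits the precision. The sources used here give no build for the array annotation. Signal over background is unknown, because no scanner files were analysed here.

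The comparison of KO with WT used log2 values and limma 3.58.1 (R 4.3.3, lmFit and eBayes, no covariate), with Benjamini-Hochberg adjustment over all 34760 probe sets. Genes were named from the platform annotation (21640 probe sets with 1 symbol, 1321 with several, 11799 not listed there), using the probe set with the highest mean per gene. No member had more than 1. All 53 matched RefSeq (GRCm38.p6) by symbol. Members with a range of at least 1, the 6 widest-ranging other epididymal genes and the 10 nearest profiles were named, with values in full for some of them. Other genes were chosen after their values were seen. Members, lists and alternatives were chosen with earlier results of these data known. The fit was repeated with single arrays and 2 pairs of arrays left out, with a replicate block, with array weights, with a trended robust variance, with medians centred or quantiles normalized, without dim probe sets, with probe sets averaged by gene, and by the methods' t-test (log2 or linear values). The procedure was tested on simulated data. Promoter windows were aligned with Biopython 1.88.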

Additional observations from a re-analysis of the deposited data

How the results depend on the processing

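The count of members past an adjusted p of 0.05 was 0 in limma and in all 17 alternative fits. The cause of the changes given below was not tested. The count with an unadjusted p under 0.05 was 0 with all arrays and 0 to 2 without single arrays. It was 1 without WT replicate 1 (Defb8), 2 without WT replicate 3 (Defb10 and Defb33) and 2 without both KO replicate 2 and WT replicate 1 (Defb38 and Defb8). The median log2 difference (KO minus WT) over the 53 members ran from -0.10 to 0.085 without single arrays, and that of the 18 genes high in KO replicate 2 and WT replicate 1 from -1.62 to 1.22. The span of the 18 follows from their choice by these 2 arrays. Without single arrays the difference of each named member ran as follows: Adam7 -1.81 to 2.08, Defb38 -1.62 to 1.82, Defb39 -1.99 to 1.38, Defb42 -1.67 to 2.03, Wfdc10 -1.73 to 1.66, Defb11 -1.79 to 1.39, Defb23 -1.78 to 1.25, Defb28 -1.67 to 1.20, Defb26 -1.52 to 1.59, Defb22 -1.61 to 1.33, Defb37 -1.65 to 1.07, Rnase9 -1.41 to 0.87, Defb43 -1.53 to 0.83, Defb1 -1.47 to 0.68, Defb40 -1.29 to 0.61, Lcn12 -0.86 to 0.93, Defb48 -1.08 to 0.59, Defb30 -0.68 to 0.39, Defb19 -0.46 to 0.25, Defb47 -0.057 to 0.47. Array weights turned 17 of the 20 named members upward in KO (Adam7 1.26, Defb38 1.03, Defb39 0.55, Wfdc10 0.96, Defb11 0.71, Defb23 0.63, Defb28 0.60, Defb26 0.98, Defb22 0.70, Defb37 0.50, Rnase9 0.24, Defb43 0.33, Defb1 0.28, Defb40 0.024, Lcn12 0.47, Defb48 0.27, Defb30 0.22), with a median of 0.57 over the 18 genes and 0.031 over all 53. Without KO replicate 2 and WT replicate 1 the direction changed for Adam7 0.39, Defb38 0.37, Wfdc10 0.030, Defb26 0.10, Lcn12 0.25. On linear values Defb42 was at -0.10, and the median of the 18 genes was -0.91. The filter on dim probe sets left 5 members. Quantile normalization, median centring and the variance model changed no direction among the 20. With the replicate number as a replicate block the differences stayed as they were, the median over the members was -0.07, and 0 members passed. The numbers do not pair the arrays: deviations of arrays with the same number correlated at -0.37 to -0.094 over probe sets. Across numbers, KO replicate 2 and WT replicate 1 correlated at 0.52. The correlation was 0.48 for KO replicate 3 with WT replicate 2 and 0.37 for KO replicate 1 with WT replicate 3. All remaining pairs of a KO and a WT array were negative. Likeness of KO replicate 2 and WT replicate 1 was thus seen over all probe sets, and its cause was not tested. The low signal of the members with narrow range and the number of arrays limit what could be detected.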
